A study of Mus musculus with 10 samples.

Results

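The Axin2 label was studied as one factor in RNA-seq of sorted adult mouse lung cells: 4 libraries of cells that carried the label were compared with 4 libraries of cells that did not. The 8 libraries were chosen by their lineage labels and make up 8 of the 10 libraries of the series; the other 2, of a Wnt2 lineage, came from another mouse line and were left out. All 8 came from lung mesenchyme of adult Axin2CreERT2:tdT:PdgfraEGFP mice, so every group carries the same alleles, and cells were separated by fluorescence. The groups, with 2 libraries each, were Axin2:Pdgfra cells (tdT and EGFP, lineage G_T), Axin2 cells (tdT only, lineage tdt), Pdgfra cells (EGFP only, lineage GFP) and Negative cells (neither reporter, lineage neg). The first pair is called labelled here and the second pair unlabelled. Each side thus holds 2 libraries with the Pdgfra reporter and 2 without it, and the difference given throughout is the mean of the 2 labelled group means minus the mean of the 2 unlabelled group means, on the log2 scale. The labels give neither the time of labelling nor the sort gates, and are silent on whether each library is a separate animal. Sex-linked transcripts, given below, differ between the 2 Negative libraries, and for the other 3 groups the spread behind the p-values may be technical only.

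Axin2 encodes a scaffold protein of the complex that marks beta-catenin for destruction. Its own transcription is switched on by canonical Wnt signalling, which makes it a common reporter of cells that respond to Wnt. CreERT2 is a recombinase that acts only while its ligand is present, so the tdT reporter marks cells in which the Axin2 driver was active at that time and their descendants, whether or not they still express Axin2. In lung mesenchyme, Wnt-responsive cells have been described around airways and vessels and near alveoli, and Pdgfra marks a large class of fibroblasts.

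The values are the authors' expression values, taken as log2 from their range, 1 per gene and library, over 14854 genes. Median values were 9.10 to 9.11 and the highest value was 19.25 in all 8 libraries. Depth is unknown, because no counts were given. In each library many genes share the lowest value, which was 1.55 to 2.06 in labelled and 1 to 2.67 in unlabelled libraries. The share of genes listed at it averaged 10.4% ± 3.16 in labelled and 9.66% ± 6.74 in unlabelled libraries (SD, n = 4 each), with an exact two-sided permutation p of 0.886, where 0.0286 is the smallest that 4 against 4 allows. Spearman correlations between libraries were 0.778 to 0.866 within lineages (4 pairs) and 0.671 to 0.852 between lineages (24 pairs). Negative replicate 2 stood apart in Xist, the noncoding RNA of the inactive X chromosome, which was listed at 8.57 there and at 16.68 to 17.72 in the other 7 libraries. The 4 measured Y-linked genes were at 9.73 to 10.74 in that library and at 1.0 to 3.36, at or near the lowest values, in the other 7, so by these transcripts it is of male origin and the other 7 are of female origin. The only library of male origin is thus an unlabelled one. Sex can therefore not be told apart from this library's other differences or, in part, from the Axin2 label. Its part in the differences was not tested. Medians of some lists and the named calls lost without this library are given below. Mesenchymal markers were present throughout: Pdgfra was listed at 12 to 15.21 and the pericyte gene Pdgfrb at 12.53 to 16.94. Genes of other cell types were present too, among them the surfactant gene Sftpc at 13.31 to 15.43.

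Axin2 itself did not pass the test between labelled and unlabelled libraries. It had 12.04 and 9.54 in Axin2:Pdgfra and 10.47 and 11.57 in Axin2 cells, against 10.39 and 11.06 in Pdgfra and 10.66 and 10.07 in Negative cells. The highest and the lowest value of the 8 were both in Axin2:Pdgfra cells, and the groups overlapped. The difference was 0.36 ± 0.57 (adjusted p = 0.812), with a 95% interval of -0.87 to 1.59, and it was -0.26 (adjusted p = 0.856) without Axin2:Pdgfra replicate 1. Pdgfra, the gene behind the other reporter, differed by 0.43 ± 0.28 (adjusted p = 0.502) with the Axin2 label. Of 19 measured canonical Wnt target genes, 12 were positive and 7 negative, where 53.1% of all 13867 genes tested were positive. Their median difference was 0.36, beside 0.08 over all genes tested. Without Axin2:Pdgfra replicate 1 this median was -0.05, and without any other 1 library it was 0.19 to 0.59. The 1 target gene that passed was lower: Ccnd1, the cyclin D1 gene, had 10.45 and 8.81 in Axin2:Pdgfra and 9.33 and 8.2 in Axin2 cells, against 12.48 and 11.94 in Pdgfra and 10.83 and 12.74 in Negative cells. Its groups did not overlap, and the difference was -2.80 ± 0.58 (adjusted p = 0.0344). No member passed among 19 Wnt ligands and secreted modulators (median 0.52, and 0.25 to 0.82 without 1 library) or 25 Wnt receptors and signal transducers (median 0.10, and -0.16 to 0.13). The lowest unadjusted p of these lists belonged to Dkk3, a secreted Dickkopf family protein (0.94 ± 0.23, adjusted p = 0.0668), and to Gsk3b, the kinase that phosphorylates beta-catenin (-0.71 ± 0.23, adjusted p = 0.154).

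Across all genes, 171 of 13867 (1.23%) passed limma's moderated test at an adjusted p under 0.05. Of these, 45 (0.325%) were higher and 126 (0.909%) lower in labelled cells. When each library was first centred on the median of its detected genes, 12 were higher and 90 lower. The named genes below include contractile and matrix genes among the higher calls and epithelial, endothelial and erythroid genes and the nuclear RNA Neat1 among the lower ones. In such bulk samples, fewer cells of a type and less RNA per cell cannot be told apart. In 93 of the 171 all 4 labelled libraries lay on one side of all 4 unlabelled ones, 23 above and 70 below; over all genes tested 3.24% lay wholly above and 2.86% wholly below. For comparison, the Pdgfra label in the same fit gave 749 calls (5.40%), 379 higher (2.73%) and 370 lower (2.67%). No gene passed when variances were moderated without the trend and robust options (1791 genes at an unadjusted p under 0.05), and 75 passed with the second index of the library barcode as a covariate. The number of calls also depended on single libraries. Leaving out 1 library gave between 5 calls, without Pdgfra replicate 1, and 331 calls, without Negative replicate 0. In that last fit most calls were higher, 198 against 133 lower, whereas in the other 7 most were lower. The genes that passed in all 8 such fits were 5: Neat1, Clic5, Hbb-bs, Cldn18 and Akap5.

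Of 19 measured smooth muscle contractile genes, 2 were called higher in labelled cells, beside 0.325% of all genes, and none lower. The median difference of the list was 1.20, and 0.72 without Negative replicate 2. By stratum it was 0.34 with and 1.88 without the Pdgfra label. Of the 19, 17 were positive, beside 53.1% of all genes. Both called genes, Acta2 and Myl9, encode parts of the contractile apparatus: smooth muscle actin and the regulatory light chain of myosin. Genes of this class are known to be switched on by serum response factor and myocardin at CArG boxes, so the 250 bases before the annotated start of each are shown (RefSeq, GRCm38.p6, written 5′ to 3′ along the gene). Capitals mark CCNNNNNNGG with at least 5 of the 6 inner bases A or T, a form that is its own reverse complement and was widened from 6 of 6 to hold the Acta2 boxes. The Acta2 window is chr19:34255374-34255623 on the minus strand and the Myl9 window is chr2:156775214-156775463 on the plus strand.
Acta2: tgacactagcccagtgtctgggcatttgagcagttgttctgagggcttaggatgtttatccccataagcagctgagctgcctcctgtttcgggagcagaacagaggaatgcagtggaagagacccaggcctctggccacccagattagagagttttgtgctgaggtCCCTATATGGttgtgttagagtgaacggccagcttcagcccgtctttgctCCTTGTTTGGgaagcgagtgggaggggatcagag
Myl9: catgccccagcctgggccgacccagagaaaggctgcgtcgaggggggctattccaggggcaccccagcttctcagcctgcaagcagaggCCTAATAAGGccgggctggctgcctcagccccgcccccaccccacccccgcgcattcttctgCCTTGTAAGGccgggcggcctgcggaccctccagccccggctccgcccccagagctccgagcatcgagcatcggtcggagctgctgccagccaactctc
The boxes begin 84 and 34 bases before the start of Acta2 and 161 and 99 bases before that of Myl9. Of all 32851 windows, 8.59% hold such a box, and 1.47% hold one with all 6 inner bases A or T. Among 17 windows matched to 16 of the 20 listed genes, those of Acta2 and Myl9 hold a box. Acta2 is counted by the choice of the wider form, and Myl9 alone holds one with all 6, so these matches are a description and no enrichment.

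Acta2 had 13.65 and 11.8 in Axin2:Pdgfra and 16.28 and 16.25 in Axin2 cells, against 11.24 and 11.42 in Pdgfra and 14.35 and 12.09 in Negative cells. Axin2 cells were highest, and Negative replicate 0 lay above both Axin2:Pdgfra libraries, so the groups overlapped. The difference was 2.22 ± 0.45 (adjusted p = 0.0299), 1.40 with and 3.04 without the Pdgfra label. Myl9 had 12.68 and 12.11 in Axin2:Pdgfra and 14.4 and 14.7 in Axin2 cells, against 10.88 and 10.43 in Pdgfra and 12.81 and 11.46 in Negative cells. Here too both Axin2 libraries were above the rest, and the difference was 2.08 ± 0.35 (adjusted p = 0.0134). Flna, the actin crosslinker filamin A, had 15.5 and 15.92 in Axin2:Pdgfra and 16.8 and 17.13 in Axin2 cells, against 15.01 and 15.06 in Pdgfra and 15.52 and 14.92 in Negative cells (1.21 ± 0.17, adjusted p = 0.00462). It was 1 of 2 called among 26 actin-binding and focal adhesion genes (median 0.07, with 14 positive and 12 negative). The other, Msn or moesin, was lower (-0.72 ± 0.16, adjusted p = 0.041). Of all genes, 0.325% were called higher and 0.909% lower. Mustn1, a small nuclear protein of muscle and skeletal tissue, had 12.91 and 11.76 in Axin2:Pdgfra and 12.97 and 13.33 in Axin2 cells, against 11.22 and 9.83 in Pdgfra and 10.54 and 9.54 in Negative cells. All 4 labelled values exceeded all 4 unlabelled ones, on average by 2.46 ± 0.45 (adjusted p = 0.0201). Mrvi1, a target of cyclic GMP kinase in smooth muscle, had 9.29 and 11.75 in Axin2:Pdgfra and 11.48 and 10.55 in Axin2 cells, against 5.95 and 7.91 in Pdgfra and 6.89 and 5.97 in Negative cells, again without overlap (4.09 ± 0.86, adjusted p = 0.0369).

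The rest of the contractile list and the mural lists gave no further calls. Tagln, an actin-bundling protein of smooth muscle, differed by 1.5 (adjusted p = 0.0961), Actg2, the enteric smooth muscle actin, by 1.96 (adjusted p = 0.0669), and Cnn1 or calponin by 2.65 (adjusted p = 0.197). The summed level of the contractile list was 16.42 to 18.35 in labelled and 16.29 to 17.07 in unlabelled libraries, and only the 2 Axin2 libraries exceeded 18. With the Pdgfra label it was not higher in labelled cells, at 16.98 and 16.42 in Axin2:Pdgfra against 17.06 and 17.01 in Pdgfra cells. Without that label it was 18.3 and 18.35 in Axin2 against 17.07 and 16.29 in Negative cells. Of 21 pericyte genes none passed (median -0.09, 0.30 when values under 6 were raised to 6, and -0.14 to 0.52 without 1 library). Their medians were -0.87 with and 1.38 without the Pdgfra label, and their summed level was 15.59 to 19.56 in labelled and 16.01 to 18.76 in unlabelled libraries. Of 16 vasoactive receptor and cyclic GMP genes none passed either (median 0.07, and -0.02 to 0.47 without 1 library). Of the 5 genes called higher here (Acta2, Myl9, Flna, Mustn1 and Mrvi1), all lost the call without Axin2 replicate 2 or without Pdgfra replicate 1, 4 without Axin2 replicate 1 or Pdgfra replicate 2, 3 without Negative replicate 2, 2 without Axin2:Pdgfra replicate 1 and 1 without Axin2:Pdgfra replicate 2, with adjusted p up to 0.216. After centring, Acta2 (adjusted p = 0.0692) and Mrvi1 (adjusted p = 0.0511) no longer passed.

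**Figure D1:**
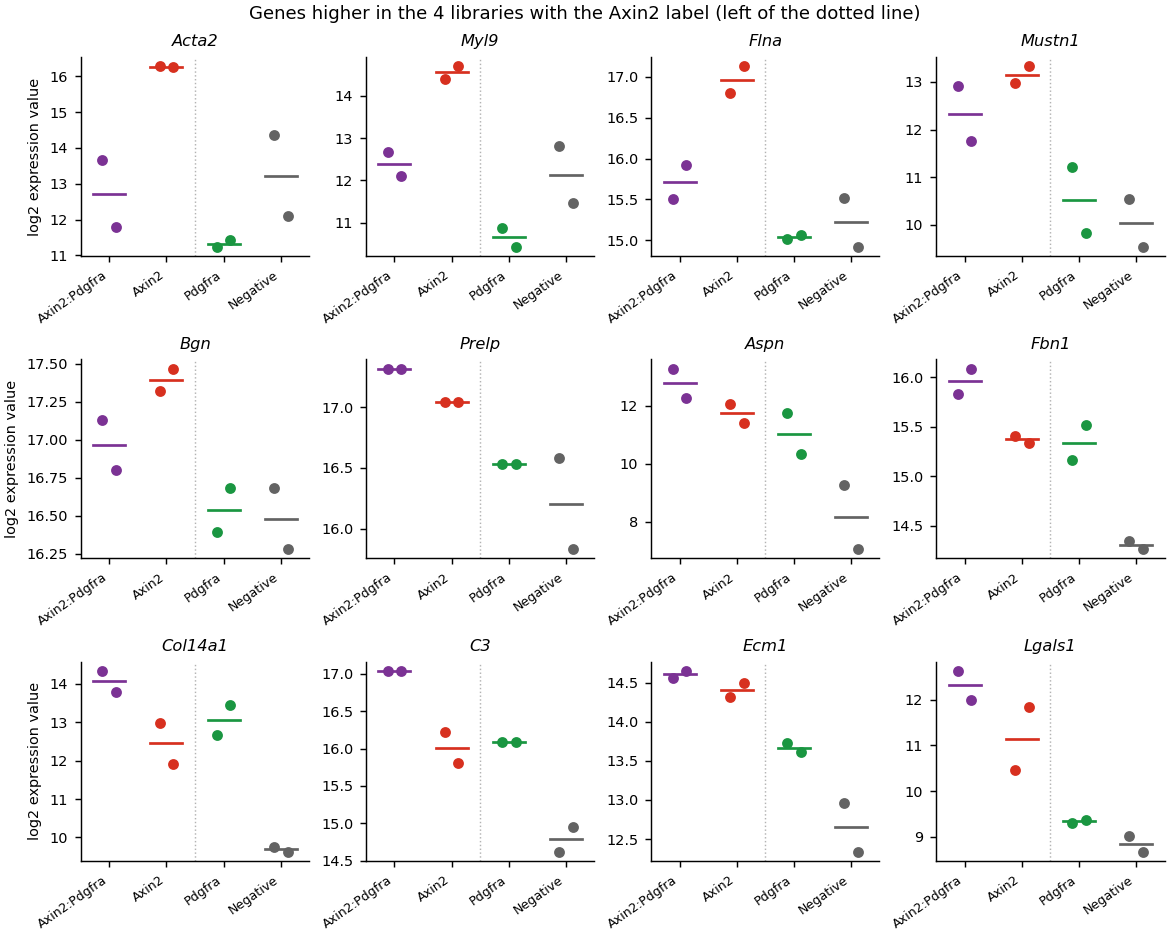
Log2 expression value (y) of 12 genes called higher in labelled cells, by lineage (x). Points are single libraries, bars are means of 2, and the dotted line separates labelled lineages on the left from unlabelled ones. Axin2 cells are highest for Acta2 (16.28 and 16.25) and Axin2:Pdgfra cells for C3 (17.04 in both).

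Small leucine-rich proteoglycans, which coat and space collagen fibrils, were called higher for 3 of 10 measured members, beside 0.325% of all genes. All 10 differences were positive, beside 53.1% of all genes (median 1.18, and 0.76 with values under 6 raised to 6). Bgn, or biglycan, had 17.13 and 16.8 in Axin2:Pdgfra and 17.32 and 17.47 in Axin2 cells, against 16.39 and 16.68 in Pdgfra and 16.68 and 16.28 in Negative cells. The groups did not overlap and the difference was 0.67 ± 0.13 (adjusted p = 0.0282). Prelp, which anchors basement membranes to connective tissue, had 17.32 and 17.32 in Axin2:Pdgfra and 17.04 and 17.04 in Axin2 cells, against 16.53 and 16.53 in Pdgfra and 16.58 and 15.83 in Negative cells, also without overlap (0.81 ± 0.15, adjusted p = 0.0187). Aspn, or asporin, had 13.29 and 12.28 in Axin2:Pdgfra and 12.08 and 11.41 in Axin2 cells, against 11.74 and 10.33 in Pdgfra and 9.25 and 7.05 in Negative cells. Its lowest labelled value lay below the highest unlabelled one, and the difference was 2.67 ± 0.56 (adjusted p = 0.0351). The other 7 members differed by 0.26 to 2.04 and did not pass. The summed level of the list was 18.36 to 18.6 in labelled and 17.24 to 17.99 in unlabelled libraries. Its median level per library overlapped, at 11.93 to 13.54 in labelled and 10.6 to 13.14 in unlabelled libraries.

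Other matrix lists held 1 higher call each, beside 0.325% of all genes. Of 25 genes of fibrillar collagens and collagen processing (median 0.64), Col6a2, a chain of the beaded collagen VI, was called with 15.41 and 15.27 in Axin2:Pdgfra and 14.82 and 15.21 in Axin2 cells, against 14.32 and 15.02 in Pdgfra and 13.48 and 13.63 in Negative cells (1.07 ± 0.20, adjusted p = 0.0236). Of 25 elastic fibre and matricellular genes (median 0.72), Fbn1, the microfibril protein fibrillin 1, was called with 15.83 and 16.09 in Axin2:Pdgfra and 15.41 and 15.34 in Axin2 cells, against 15.16 and 15.52 in Pdgfra and 14.34 and 14.26 in Negative cells (0.85 ± 0.16, adjusted p = 0.0226). For both, Pdgfra replicate 2 lay above at least 1 Axin2 library, so the groups overlapped. Of 19 basement membrane genes (median -0.34), the laminin chain gene Lama4 was higher (0.89 ± 0.20, adjusted p = 0.0432) and the collagen IV chain gene Col4a3 lower (-2.70 ± 0.35, adjusted p = 0.0032). Outside these lists, Ecm1, a secreted glycoprotein of skin and connective tissue, had 14.56 and 14.65 in Axin2:Pdgfra and 14.32 and 14.5 in Axin2 cells, against 13.73 and 13.61 in Pdgfra and 12.96 and 12.34 in Negative cells. No unlabelled value reached a labelled one, and the difference was 1.35 ± 0.22 (adjusted p = 0.0117). Olfml2b, an extracellular olfactomedin domain protein, had 12.65 and 12.77 in Axin2:Pdgfra and 12.39 and 12.57 in Axin2 cells, against 10.63 and 11.16 in Pdgfra and 10.66 and 7.99 in Negative cells (2.49 ± 0.51, adjusted p = 0.0341).

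These 8 matrix calls (Bgn, Prelp, Aspn, Col6a2, Fbn1, Lama4, Ecm1 and Olfml2b) depended on single libraries. None passed without Axin2 replicate 2 or without Pdgfra replicate 1; 7 were lost without Axin2 replicate 1, and 6 each without Axin2:Pdgfra replicate 1, Axin2:Pdgfra replicate 2, Pdgfra replicate 2 or Negative replicate 2, with adjusted p up to 0.229 and differences of 0.73 to 1.30 times those given. After centring, Ecm1 still passed and the other 7 did not (Bgn 0.147, Prelp 0.095, Aspn 0.0616, Col6a2 0.0695, Fbn1 0.0773, Lama4 0.107 and Olfml2b 0.0645 as adjusted p).

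Of 23 adventitial fibroblast genes, which mark the cells of vessel and airway sheaths, 4 were called higher, beside 0.325% of all genes, and none lower. Of the 23, 20 were positive, beside 53.1% of all genes (median 1.01, with 1.01 with and 0.96 without the Pdgfra label). C3, the central complement component, had 17.04 and 17.04 in Axin2:Pdgfra and 16.22 and 15.8 in Axin2 cells, against 16.09 and 16.09 in Pdgfra and 14.62 and 14.95 in Negative cells. Both Axin2:Pdgfra libraries were above all others, Axin2 replicate 2 lay below the Pdgfra libraries, and the difference was 1.08 ± 0.14 (adjusted p = 0.0032). Fbln1, the matrix protein fibulin 1, had 14.52 and 14.45 in Axin2:Pdgfra and 12.32 and 12.39 in Axin2 cells, against 13.19 and 13.46 in Pdgfra and 10.43 and 10.62 in Negative cells. Within each Pdgfra stratum the labelled libraries were the higher ones, 1.16 with and 1.83 without the Pdgfra label (1.49 ± 0.26, adjusted p = 0.0187). Col14a1, a fibril-associated collagen, had 14.34 and 13.8 in Axin2:Pdgfra and 12.99 and 11.92 in Axin2 cells, against 12.67 and 13.45 in Pdgfra and 9.76 and 9.63 in Negative cells (1.89 ± 0.34, adjusted p = 0.02). The remaining call was Gsn, or gelsolin, which severs actin filaments (0.79 ± 0.15, adjusted p = 0.0275). Pi16, a defining adventitial marker, differed by 1.59 (adjusted p = 0.312) and did not pass.

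Of 25 alveolar fibroblast and lipofibroblast genes, 2 were called higher, beside 0.325% of all genes, and 1 with values under 6 raised to 6. Their median was 0.39, with 0.23 without Negative replicate 0, 0.25 without Axin2 replicate 1 and 0.68 without Negative replicate 2. Enpp2, or autotaxin, which makes lysophosphatidic acid, had 14.96 and 14.61 in Axin2:Pdgfra and 14.28 and 14.4 in Axin2 cells, against 14.28 and 13.69 in Pdgfra and 12.84 and 12.22 in Negative cells (1.31 ± 0.23, adjusted p = 0.0187). Itga8, the integrin chain that binds nephronectin, differed by 0.91 ± 0.20 (adjusted p = 0.046). Npnt, Limch1 and Tcf21, defining markers of the class, did not pass: they differed by 0.14, -0.59 and 1.47 in that order. Outside the lists, the complement gene C4b had 14.37 and 14.16 in Axin2:Pdgfra and 13.7 and 13.41 in Axin2 cells, against 13.58 and 13.17 in Pdgfra and 11.49 and 11.88 in Negative cells (1.38 ± 0.25, adjusted p = 0.0187). Gpx3, a secreted glutathione peroxidase, had 16.25 and 16.22 in Axin2:Pdgfra and 16.39 and 16.32 in Axin2 cells, against 15.54 and 15.77 in Pdgfra and 15.54 and 15.3 in Negative cells, with no overlap (0.76 ± 0.13, adjusted p = 0.0187). Igfbp5, a binding protein of insulin-like growth factors, differed by 1.25 ± 0.28 (adjusted p = 0.0477) and did not pass with values under 6 raised to 6. Serping1, the inhibitor of complement C1, was named after its values were seen and differed by 0.74 ± 0.16 (adjusted p = 0.0374). It passed without Negative replicate 0 and in none of the other 7 fits without 1 library, and after centring it did not pass (adjusted p = 0.132).

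C4b, Igfbp5 and Gpx3 belong to neither fibroblast list. Of the 9 genes above called by the stated rule (C3, Fbln1, Col14a1, Gsn, Enpp2, Itga8, C4b, Igfbp5 and Gpx3), all were lost without Pdgfra replicate 1. Without Axin2:Pdgfra replicate 1, Axin2 replicate 1 or Axin2 replicate 2, 8 were lost each; 7 were lost without Pdgfra replicate 2, 6 without Negative replicate 2, 4 without Axin2:Pdgfra replicate 2 and 1 without Negative replicate 0, with adjusted p up to 0.269. After centring, Gsn (adjusted p = 0.103), Itga8 (0.138), Igfbp5 (0.1) and Gpx3 (0.098) no longer passed.

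Several of the genes with the largest positive differences were at or near the lowest value in some unlabelled libraries. Sox8, a transcription factor, was listed at the lowest value in all 4 unlabelled libraries and at 6.35, 8.62, 9.01 and 7.76 in labelled ones, and no fold is given. The uncharacterized gene 6330403K07Rik had 10.26 and 12.08 in Axin2:Pdgfra and 9.69 and 9.1 in Axin2 cells, against 3.72 and 8.76 in Pdgfra and 1.79 and 2.67 in Negative cells, the Negative values being the lowest of those libraries (6.05 ± 1.27, adjusted p = 0.0357). Cercam, a cell adhesion protein, had 10.67 and 10.47 in Axin2:Pdgfra and 9.82 and 10.21 in Axin2 cells, against 9.81 and 9.52 in Pdgfra and 3.85 and 2.67 in Negative cells. Only the Negative libraries were low, and the difference was 3.83 ± 0.83 (adjusted p = 0.039), 0.91 with and 6.76 without the Pdgfra label. Lgals1, the secreted lectin galectin 1, had 12.63 and 12 in Axin2:Pdgfra and 10.46 and 11.84 in Axin2 cells, against 9.3 and 9.38 in Pdgfra and 9.03 and 8.68 in Negative cells. No unlabelled value exceeded 9.38 (2.63 ± 0.51, adjusted p = 0.0264). The others were Shisa4 (2.99 ± 0.68, adjusted p = 0.0481), Nt5dc2 (2.34 ± 0.47, adjusted p = 0.0287) and Adi1, an enzyme of methionine salvage (2.23 ± 0.46, adjusted p = 0.0317). Of these 7 calls, all ended without Axin2 replicate 2, Axin2:Pdgfra replicate 2 or Pdgfra replicate 1, 6 each without Axin2:Pdgfra replicate 1, Axin2 replicate 1, Pdgfra replicate 2 or Negative replicate 2, and 1 without Negative replicate 0, with adjusted p up to 0.233. With values under 6 raised to 6, Sox8, 6330403K07Rik, Shisa4 and Cercam no longer passed (adjusted p 0.0552 to 0.211). After centring, Sox8, Shisa4, Cercam and Nt5dc2 did not pass (adjusted p 0.0526 to 0.0662).

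Alveolar type 1 epithelial genes were lower in labelled cells: 11 of 13 measured members were called lower, beside 0.909% of all genes, and all 13 were negative (median -2.44). Alveolar type 1 cells are the thin cells across which gas is exchanged. Clic5, an intracellular chloride channel family member, had 12.38 and 12.61 in Axin2:Pdgfra and 13.42 and 12.8 in Axin2 cells, against 14.81 and 13.86 in Pdgfra and 16.09 and 16.22 in Negative cells. The 4 lineages were ordered Axin2:Pdgfra, Axin2, Pdgfra and Negative from low to high without overlap of labelled and unlabelled libraries, and the difference was -2.44 ± 0.25 (adjusted p = 0.000618). Cldn18, a tight junction claudin, had 11.73 and 10.78 in Axin2:Pdgfra and 12.59 and 12.23 in Axin2 cells, against 13.46 and 12.86 in Pdgfra and 15.53 and 15.48 in Negative cells, in the same order of lineage means (-2.50 ± 0.28, adjusted p = 0.0015). Akap5, an anchor of protein kinase A, had 9.85 and 9.48 in Axin2:Pdgfra and 12.94 and 11.62 in Axin2 cells, against 14.13 and 12.23 in Pdgfra and 15.48 and 15.6 in Negative cells. Pdgfra replicate 2 lay below Axin2 replicate 1, so here the groups overlapped (-3.39 ± 0.41, adjusted p = 0.00208). Ager, the receptor for advanced glycation end products and a defining marker of these cells, had 11.15 and 12.34 in Axin2:Pdgfra and 12.97 and 12.61 in Axin2 cells, against 12.67 and 12.3 in Pdgfra and 15.77 and 15.32 in Negative cells (-1.75 ± 0.30, adjusted p = 0.0154). Pdgfra cells were no higher than Axin2 cells for Ager, and the difference was -0.74 with and -2.75 without the Pdgfra label. The homeodomain gene Hopx differed by -2.45 ± 0.40 (adjusted p = 0.0118) and Sec14l3 by -2.98 ± 0.39 (adjusted p = 0.0032). The 2 members that did not pass were Pdpn, or podoplanin (-1.66, adjusted p = 0.217), and the water channel Aqp5 (-2.36, adjusted p = 0.183).

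A pair of further calls came from other lists. Col4a3, a basement membrane collagen chain, had 9.97 and 9.56 in Axin2:Pdgfra and 12.35 and 11.13 in Axin2 cells, against 11.62 and 11.32 in Pdgfra and 15.3 and 15.56 in Negative cells (-2.70 ± 0.35, adjusted p = 0.0032). Itga3, an integrin chain of epithelial adhesion and the 1 call among 17 integrins (median -0.24, 0.05 with values under 6 raised to 6, and -0.36 to 0.18 without 1 library), had 8.77 and 9.32 in Axin2:Pdgfra and 12.01 and 11.93 in Axin2 cells, against 12.11 and 11.07 in Pdgfra and 14.66 and 14.14 in Negative cells (-2.49 ± 0.37, adjusted p = 0.00715). The summed level of the type 1 list was 15.35 to 16.38 in labelled and 16.18 to 18.98 in unlabelled libraries, highest in the 2 Negative libraries. The median difference of the list was -1.84 with and -3.09 without the Pdgfra label. Of 8 genes here (Clic5, Cldn18, Akap5, Sec14l3, Ager, Hopx, Col4a3 and Itga3), Clic5, Cldn18 and Akap5 passed in every fit that left out 1 library; 5 were lost without Pdgfra replicate 1, 3 without Axin2 replicate 2 and 1 without Negative replicate 2, with adjusted p up to 0.138. The list as a whole kept between 3 calls, without Pdgfra replicate 1, and 10, without Axin2:Pdgfra replicate 1.

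Alveolar type 2 and airway genes were lower for a smaller part of their lists. Of 14 type 2 genes, 4 were called lower, beside 0.909% of all genes, and 3 with values under 6 raised to 6. All 14 were negative (median -1.39). Of 14 airway and pan-epithelial genes, 4 were called lower and all 14 were negative (median -2.93, and -1.5 with values under 6 raised to 6). Slc34a2, the phosphate transporter of type 2 cells, had 11.52 and 12.38 in Axin2:Pdgfra and 12.81 and 12.01 in Axin2 cells, against 14.74 and 13.76 in Pdgfra and 13.69 and 15.21 in Negative cells. All labelled values lay below all unlabelled ones (-2.17 ± 0.36, adjusted p = 0.0146). Sftpa1, a surfactant protein, had 12.94 and 11.57 in Axin2:Pdgfra and 12.81 and 11.82 in Axin2 cells, against 14.76 and 13.85 in Pdgfra and 13.88 and 14.73 in Negative cells (-2.02 ± 0.36, adjusted p = 0.0187). Sftpc, the surfactant protein specific to type 2 cells, had 13.73 and 13.31 in Axin2:Pdgfra and 14.25 and 13.59 in Axin2 cells, against 15.13 and 14.68 in Pdgfra and 14.55 and 15.43 in Negative cells and was lower by a smaller amount, with no overlap (-1.23 ± 0.24, adjusted p = 0.0287). The chemokine Cxcl15 of lung epithelium differed by -1.65 ± 0.37 (adjusted p = 0.0469). Cdh1, the epithelial cadherin, had 10.07 and 7.4 in Axin2:Pdgfra and 11.29 and 10.57 in Axin2 cells, against 11.68 and 11.07 in Pdgfra and 14.82 and 13.66 in Negative cells (-2.97 ± 0.55, adjusted p = 0.0215). Nkx2-1, the lung epithelial transcription factor, had 5.75 and 6.12 in Axin2:Pdgfra and 8.85 and 8.2 in Axin2 cells, against 9.73 and 8.5 in Pdgfra and 12.42 and 12.57 in Negative cells. Negative libraries were highest for both (-3.57 ± 0.71, adjusted p = 0.0282 for Nkx2-1). Scgb1a1, the secretoglobin of club cells, had 13.74 and 14.34 in Axin2:Pdgfra and 15.06 and 14.53 in Axin2 cells, against 15.61 and 15.21 in Pdgfra and 15.45 and 15.68 in Negative cells (-1.07 ± 0.20, adjusted p = 0.0226), and the keratin gene Krt7 differed by -2.99 ± 0.55 (adjusted p = 0.0215). Epcam, a surface marker of epithelium, was at 3.3 to 10.06 in labelled and 1.55 to 8.88 in unlabelled libraries (-0.43, adjusted p = 0.926).

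Summed levels of the type 2 list were 15.41 to 16.09 in labelled and 16.66 to 17.64 in unlabelled libraries, which did not overlap. Those of the airway list were 14.23 to 15.48 in labelled and 15.47 to 16.77 in unlabelled libraries. Of the 8 calls, all were lost without Axin2 replicate 2, Negative replicate 2 or Pdgfra replicate 1, 6 without Pdgfra replicate 2, 3 each without Axin2:Pdgfra replicate 1, Axin2 replicate 1 or Axin2:Pdgfra replicate 2, and 1 without Negative replicate 0, with adjusted p up to 0.285. After centring, Cxcl15 did not pass (adjusted p = 0.0567).

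Endothelial genes were negative for 17 of 18 measured members (median -1.58) and called lower for 3, beside 0.909% of all genes. Cdh5, the cadherin of endothelial junctions, had 12.33 and 13.4 in Axin2:Pdgfra and 13.39 and 12.99 in Axin2 cells, against 14.78 and 14.73 in Pdgfra and 14.08 and 15.53 in Negative cells. Every labelled value was under every unlabelled one (-1.75 ± 0.31, adjusted p = 0.0187). Pecam1, a junction protein of endothelium and platelets, had 10.92 and 11.47 in Axin2:Pdgfra and 12.53 and 11.7 in Axin2 cells, against 13.53 and 13.41 in Pdgfra and 12.62 and 14.3 in Negative cells, also without overlap (-1.81 ± 0.37, adjusted p = 0.0341). Tek, the angiopoietin receptor, had 11.14 and 11.56 in Axin2:Pdgfra and 11.62 and 10.78 in Axin2 cells, against 13.02 and 13.5 in Pdgfra and 12.31 and 14.45 in Negative cells (-2.04 ± 0.43, adjusted p = 0.0348). Eng, the coreceptor endoglin, was the 1 positive member (0.03, adjusted p = 0.972). Summed levels of the list were 14.89 to 15.92 in labelled and 16.17 to 17.43 in unlabelled libraries. Its median level per library overlapped, at 9.61 to 11.47 in labelled and 11.34 to 12.94 in unlabelled libraries. Of 17 immune cell genes, 16 were negative (median -1.30, and -1.97 without Axin2:Pdgfra replicate 2) and Cd74, the invariant chain of class II antigen presentation, was called lower (11.46 and 11.63 in Axin2:Pdgfra and 12.6 and 12.44 in Axin2 cells, against 12.97 and 13.01 in Pdgfra and 13.65 and 13.83 in Negative cells; -1.34 ± 0.26, adjusted p = 0.0278). The pan-leukocyte gene Ptprc was listed at 4.55 to 9.37 in labelled and 7.18 to 8.5 in unlabelled libraries. The summed level of the immune list was 12.77 to 14.22 in labelled and 14.22 to 15.32 in unlabelled libraries.

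Of Cdh5, Pecam1, Tek, Cd74 and the receptor gene Flt1, all 5 calls ended without Pdgfra replicate 2, Axin2 replicate 2, Negative replicate 2 or Pdgfra replicate 1, 4 without Axin2:Pdgfra replicate 1, and 3 each without Axin2 replicate 1 or Axin2:Pdgfra replicate 2, with adjusted p up to 0.216.

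**Figure D2:**
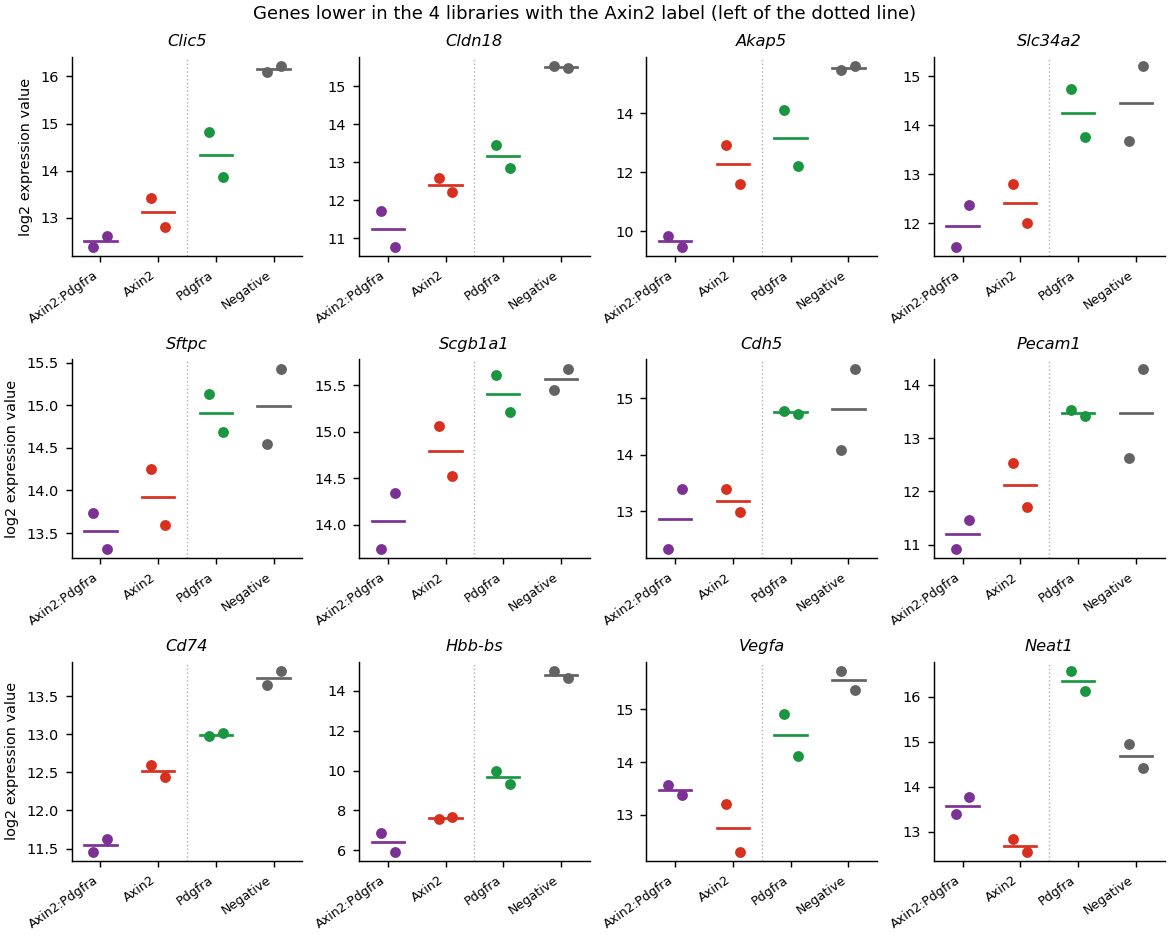
Log2 expression value (y) of 12 genes called lower in labelled cells, by lineage (x). Points are single libraries, bars are means of 2, and the dotted line separates labelled lineages on the left from unlabelled ones. Hbb-bs stands at 15 and 14.62 in Negative cells, and Neat1 is highest in Pdgfra cells (16.58 and 16.14).

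Of 6 measured erythroid genes 3 were called lower, beside 0.909% of all genes, and all 6 were negative. Their median of -4.43 was -0.66 with and -8.04 without the Pdgfra label. Hbb-bs, an adult beta-globin gene, had 6.85 and 5.93 in Axin2:Pdgfra and 7.59 and 7.69 in Axin2 cells, against 9.99 and 9.32 in Pdgfra and 15 and 14.62 in Negative cells. The Negative libraries stood far above all others, and the Pdgfra libraries were still above every labelled one (-5.22 ± 0.60, adjusted p = 0.0015). Hba-a1, an alpha-globin gene, had 6.89 and 8.8 in Axin2:Pdgfra and 6.46 and 6.43 in Axin2 cells, against 9.54 and 7.21 in Pdgfra and 14.61 and 14.5 in Negative cells (-4.32 ± 0.74, adjusted p = 0.0165). Alas2, the first enzyme of heme synthesis in red cells, had 8.13 and 5.41 in Axin2:Pdgfra and 2.64 and 1.75 in Axin2 cells, against 7.59 and 8.5 in Pdgfra and 12.89 and 12.02 in Negative cells, with Axin2 replicate 2 listed at its lowest value (-5.77 ± 1.11, adjusted p = 0.0253). Globin genes have near-identical copies between which the authors' counting could split reads, so single values are uncertain. The summed level of the list was 9.48 to 11.5 in labelled and 11.3 to 16.6 in unlabelled libraries, and without the 2 Negative libraries the unlabelled ones were at 11.3 and 11.37. Hbb-bs passed in every fit without 1 library. Of the 3 calls, 2 were lost without Axin2 replicate 2, Negative replicate 2 or Pdgfra replicate 1, and 1 without Pdgfra replicate 2, Axin2:Pdgfra replicate 2 or Negative replicate 0, with adjusted p up to 0.157.

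The epithelial, endothelial, immune and erythroid lists above moved with the same contrast as the matrix and contractile genes. Their part in the differences of those genes was not tested.

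**Figure D3:**
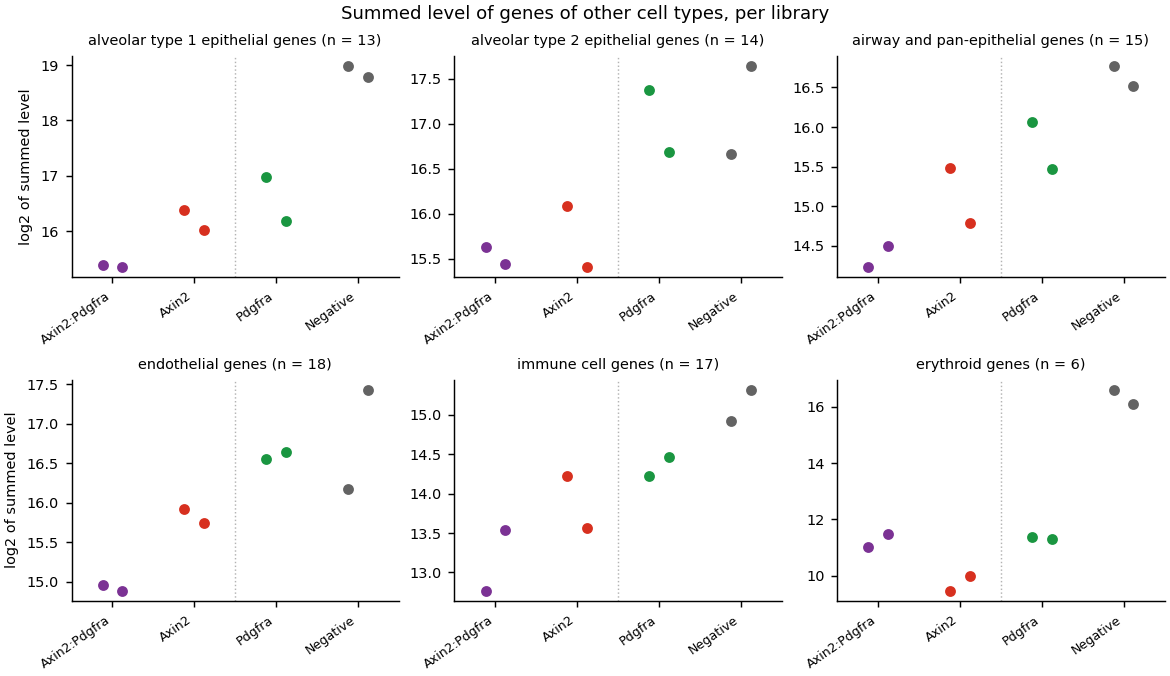
Log2 of the summed level (y) of 6 lists of genes of other cell types, by lineage (x); each point is 1 library, and the number of genes summed is given above each panel. Type 2 epithelial and endothelial sums do not overlap between labelled lineages, left of the dotted line, and unlabelled ones; the erythroid sum is high only in Negative cells, at 16.6 and 16.08.

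Neat1, the long noncoding RNA that scaffolds nuclear paraspeckles, had the smallest adjusted p of all genes. It had 13.4 and 13.77 in Axin2:Pdgfra and 12.83 and 12.56 in Axin2 cells, against 16.58 and 16.14 in Pdgfra and 14.96 and 14.42 in Negative cells. The 2 Pdgfra libraries were highest, the Negative libraries next, and no labelled value reached an unlabelled one. The difference was -2.39 ± 0.21 (adjusted p = 0.000229), -2.78 with and -2.0 without the Pdgfra label. It passed without any 1 library, with adjusted p from 0.000699 to 0.0101.

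Most calls in the signalling lists were lower, as were 126 of the 171 calls over all genes. Of all genes tested, 0.909% were called lower and 0.325% higher. Of 21 genes listed with the PDGF, VEGF, EGF and HGF families (median 0.71, and 0.41 without Axin2 replicate 2), 3 were called lower. In this list 12 members were positive and 9 negative. The 1 higher call of the list was Igfbp5, given above as a binding protein of insulin-like growth factors. Vegfa, the main growth factor of endothelium, had 13.57 and 13.37 in Axin2:Pdgfra and 13.2 and 12.3 in Axin2 cells, against 14.92 and 14.12 in Pdgfra and 15.73 and 15.37 in Negative cells. Labelled and unlabelled libraries did not overlap (-1.92 ± 0.25, adjusted p = 0.0032). Pdgfb, a ligand of the receptor Pdgfrb, had 7.26 and 9.05 in Axin2:Pdgfra and 6.68 and 6.22 in Axin2 cells, against 10.01 and 9.35 in Pdgfra and 11.47 and 11.74 in Negative cells (-3.34 ± 0.74, adjusted p = 0.0432). Flt1, a receptor that binds Vegfa, had 10.78 and 10.35 in Axin2:Pdgfra and 10.85 and 9.94 in Axin2 cells, against 12.69 and 12.49 in Pdgfra and 12.28 and 13.19 in Negative cells, again without overlap (-2.18 ± 0.39, adjusted p = 0.0187). Fgf1, the 1 call among 15 FGF ligands and receptors (median 0.00), had 11.17 and 10.21 in Axin2:Pdgfra and 12.13 and 10.43 in Axin2 cells, against 12.3 and 12.45 in Pdgfra and 13.98 and 14.25 in Negative cells (-2.26 ± 0.40, adjusted p = 0.0187). Bmpr2, a type II BMP receptor and the 1 call among 18 BMP genes (median 0.54, and 0.33 without Axin2 replicate 2), had 13.49 and 14.06 in Axin2:Pdgfra and 13.62 and 13.78 in Axin2 cells, against 15.06 and 14.57 in Pdgfra and 14.74 and 14.6 in Negative cells (-1.01 ± 0.21, adjusted p = 0.0347). Epithelial and endothelial genes moved with the same contrast, as given above, and their part in these differences was not tested. Of the 6 calls Vegfa, Pdgfb, Flt1, Fgf1, Bmpr2 and Ccnd1, all were lost without Pdgfra replicate 1, 5 each without Pdgfra replicate 2, Axin2 replicate 2 or Negative replicate 2, 3 without Axin2 replicate 1, 2 without Axin2:Pdgfra replicate 1, and 1 each without Axin2:Pdgfra replicate 2 or Negative replicate 0, with adjusted p up to 0.268. Pdgfb (adjusted p = 0.0519) and Bmpr2 (adjusted p = 0.0533) did not pass after centring.

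The remaining lists had no member past the threshold. The Notch pathway stood lowest among them, with 12 of 15 members negative (median -0.90). That median was -0.57 with values under 6 raised to 6, and -0.57 without Negative replicate 2 and -0.59 without Axin2:Pdgfra replicate 1. Its lowest unadjusted p was that of the effector gene Hey1 (-2.36 ± 0.66, adjusted p = 0.102). Of 10 Hedgehog pathway genes, 9 were positive (median 0.55), and the target gene Gli1 had 10.29 and 10.6 in Axin2:Pdgfra and 8.71 and 7.6 in Axin2 cells, against 8.02 and 10.47 in Pdgfra and 1.79 and 2.67 in Negative cells, the Negative values being the lowest of those libraries (3.56 ± 1.06, adjusted p = 0.122). Medians were 0.17 for 19 TGF-beta genes (Tgfb3, 1.36 ± 0.40, adjusted p = 0.117), -0.21 for 13 IL6 family and STAT3 genes (Cish, -1.47 ± 0.47, adjusted p = 0.156) and 0.13 for 17 stromal chemokines and cytokines (Cxcl9, 2.85 ± 0.68, adjusted p = 0.0619). These 3 medians ranged from -0.01 to 0.12, -0.31 to -0.03 and 0.01 to 0.97 without 1 library. Retinoid metabolism had a median of 0.43 over 12 genes, and 0.12 with values under 6 raised to 6. Lists of other cell types, 7 mesothelial genes (median 0.62) and 6 Schwann cell and neuronal genes (median 1.01), had no call. Without 1 library their medians were 0.30 to 0.82 and 0.50 to 1.81, and with values under 6 raised to 6 the Schwann cell and neuronal median was 0.44. The lowest unadjusted p of the mesothelial list, with 4 members positive and 3 negative, was that of Gpm6a (-3.10 ± 1.02, adjusted p = 0.165). Among the Schwann cell and neuronal genes it was that of S100b. S100b was listed at the lowest value in Axin2:Pdgfra replicate 2 and at 6.17 to 8.3 in the other 3 labelled libraries, and at the lowest value in all 4 unlabelled libraries. Among lists of cell state, the medians were 0.09 for 12 cell cycle genes, 0.00 for 21 immediate early genes of tissue dissociation, 0.13 for 16 heat shock and unfolded protein response genes and -0.07 for 18 interferon response genes, and each changed sign or came to within 0.02 of 0 in some fit without 1 library. Their lowest unadjusted p belonged to Mcm5 (3.83 ± 1.71, adjusted p = 0.314), Ier3 (-0.90 ± 0.27, adjusted p = 0.13), Xbp1 (0.85 ± 0.25, adjusted p = 0.123) and Gbp2 (1.21 ± 0.47, adjusted p = 0.243). Xist, the 1 tested gene of a list of Y-linked genes with Xist, differed by 2.0 ± 2.24 (adjusted p = 0.742). The lowest p of the pericyte genes was that of Kcnj8 (2.65 ± 0.68, adjusted p = 0.0779) and of the vasoactive genes that of Pde1a (3.67 ± 0.99, adjusted p = 0.0949).

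**Figure D4:**
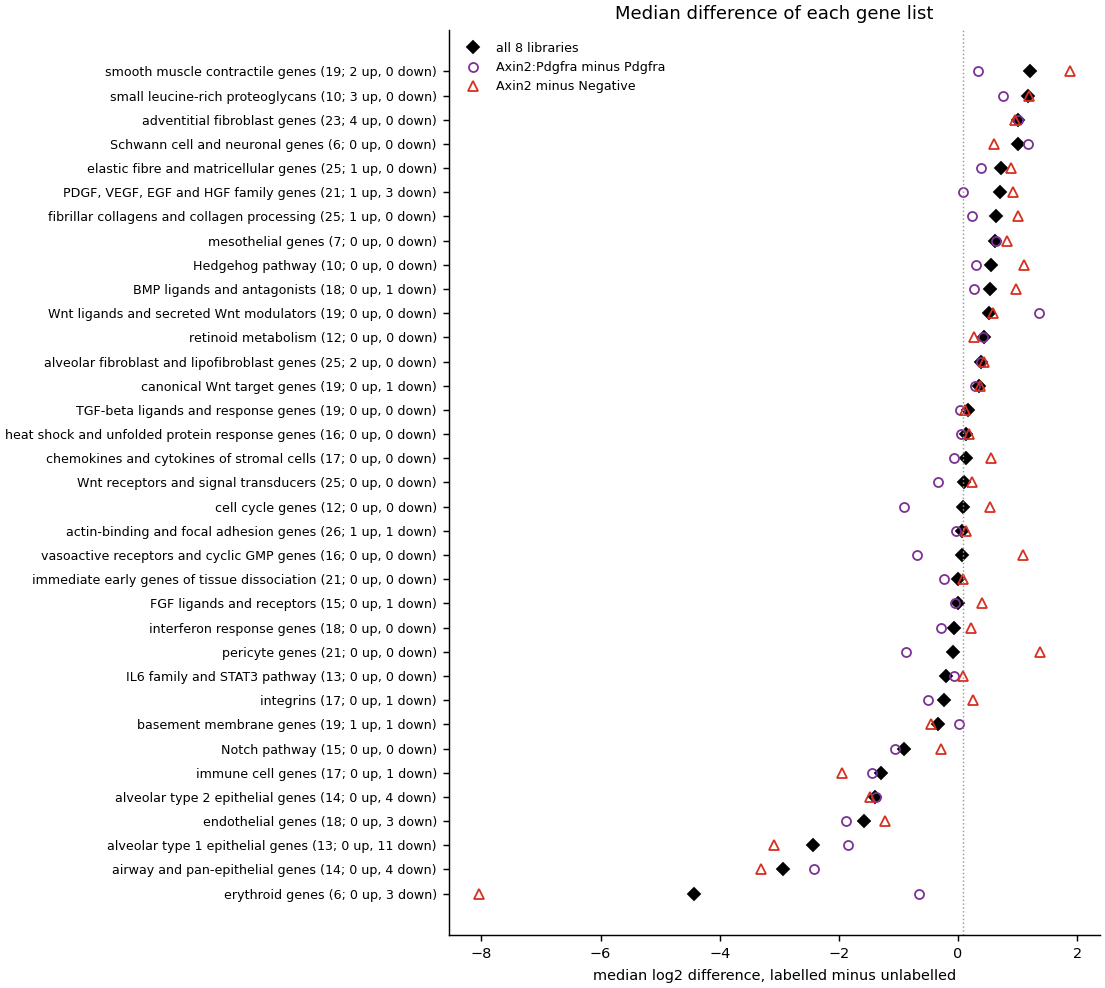
Median log2 difference (x, labelled minus unlabelled) of each list with at least 6 tested genes (y; number tested and number called higher and lower in brackets), over all 8 libraries and in each Pdgfra stratum. The dotted line is the median over all genes tested, 0.08. Smooth muscle contractile genes reach 1.20 and erythroid genes -4.43.

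Among the genes with the largest negative differences, several were near or at the lowest value in labelled cells. Prmt8, an arginine methyltransferase, was listed at the lowest value in all 4 labelled libraries and at 10.73, 8.19, 11.04 and 8.64 in unlabelled ones, so no fold is given. Mal, a membrane traffic protein of epithelium and myelin, had 4.04 and 2.06 in Axin2:Pdgfra and 2.64 and 1.75 in Axin2 cells, against 7.38 and 8.29 in Pdgfra and 11.25 and 10.7 in Negative cells, with Axin2:Pdgfra replicate 2 and Axin2 replicate 2 at their lowest value (-6.78 ± 1.28, adjusted p = 0.0236). Trpm6, a magnesium channel, had 5.57 and 2.06 in Axin2:Pdgfra and 5.91 and 3.87 in Axin2 cells, against 9.99 and 8.5 in Pdgfra and 12.06 and 11.82 in Negative cells (-6.24 ± 1.16, adjusted p = 0.0224). Slc52a3, a riboflavin transporter, was at the lowest value in both Axin2:Pdgfra libraries, and Fam160a1 in those and Axin2 replicate 2; neither kept its call when values under 6 were raised to 6 (adjusted p 0.0906 and 0.118). Other large negative differences were those of Map3k9 (-6.44 ± 1.37, adjusted p = 0.0374), Arhgap8 (-5.95 ± 1.31, adjusted p = 0.0425), 2310007B03Rik (-5.64 ± 1.18, adjusted p = 0.0356), Sh3rf3 (-5.32 ± 1.10, adjusted p = 0.0344) and AI661453 (-4.98 ± 0.95, adjusted p = 0.0247). AI661453 had no library at the lowest value, and Sh3rf3 had 7.12 and 6.31 in Axin2:Pdgfra cells. For 2310007B03Rik and AI661453 labelled and unlabelled libraries overlapped. Better expressed were Il18r1, a chain of the interleukin 18 receptor, with 5.5 and 6.01 in Axin2:Pdgfra and 10.87 and 10.21 in Axin2 cells, against 11.94 and 10.69 in Pdgfra and 13.5 and 13.62 in Negative cells (-4.29 ± 0.52, adjusted p = 0.00208), and Cyp2b10, a xenobiotic cytochrome P450, with 8.3 and 9.28 in Axin2:Pdgfra and 12.62 and 10.85 in Axin2 cells, against 12.65 and 11.76 in Pdgfra and 15.58 and 14.71 in Negative cells (-3.41 ± 0.44, adjusted p = 0.0032). Il18r1 was low in Axin2:Pdgfra cells above all. Of these 12 genes and Msn, 13 in all, every call was lost without Pdgfra replicate 1, 11 without Axin2 replicate 2, 10 each without Pdgfra replicate 2 or Negative replicate 2, 8 without Axin2 replicate 1, 7 without Axin2:Pdgfra replicate 1, 6 without Negative replicate 0 and 5 without Axin2:Pdgfra replicate 2, with adjusted p up to 0.252. After centring, Arhgap8 (adjusted p = 0.0519), Slc52a3 (0.0636) and Msn (0.113) did not pass.

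The difference with the Axin2 label was then set out by the Pdgfra label. All 171 called genes had the same sign in both strata, which their choice by the mean over both strata favours. Of the 45 higher genes, 39 differed more without the Pdgfra label (Axin2 minus Negative) than with it (Axin2:Pdgfra minus Pdgfra), and of the 126 lower genes 64 did. Across all genes tested, the differences of the 2 strata had a Pearson r of 0.16, as a description over genes, which are not independent replicates. Within the stratum with the Pdgfra label, 5 genes (0.0361%) passed, all lower: Neat1 (-2.78 ± 0.30), Epas1, a hypoxia-inducible factor (-2.52 ± 0.31), Il18r1 (-5.56 ± 0.74), the semaphorin Sema6d (-3.27 ± 0.47) and the protocadherin Pcdh1 (-2.40 ± 0.35). Without the Pdgfra label 50 genes (0.361%) passed, 18 higher and 32 lower.

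No gene passed the test of the interaction itself, which asks whether the 2 strata differ (lowest adjusted p = 0.349; 997 genes at an unadjusted p under 0.05; limma was the one tool run). Without Negative replicate 0, 2 genes passed it. The 3 genes with the lowest unadjusted p were Pcdh1, Lama3 and Mylk. Pcdh1 had 11.25 and 10.73 in Axin2:Pdgfra and 14.66 and 15.1 in Axin2 cells, against 13.36 and 13.42 in Pdgfra and 14.06 and 14.58 in Negative cells. It was lowest in Axin2:Pdgfra cells, and its interaction was -2.96 ± 0.50, with a 95% interval of -4.02 to -1.90 before adjustment. Lama3, an epithelial laminin chain, had 10.54 and 11.4 in Axin2:Pdgfra and 11.88 and 11.41 in Axin2 cells, against 10.04 and 10.69 in Pdgfra and 15.22 and 14.8 in Negative cells, high in Negative cells, with an interaction of 3.98 ± 0.70 (2.48 to 5.48). Mylk, the kinase of the myosin light chain, had 14.92 and 14.74 in Axin2:Pdgfra and 15.14 and 15.19 in Axin2 cells, against 15.77 and 15.92 in Pdgfra and 14.51 and 14.45 in Negative cells, highest in Pdgfra cells, with an interaction of -1.71 ± 0.31 (-2.38 to -1.04).

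**Figure D5:**
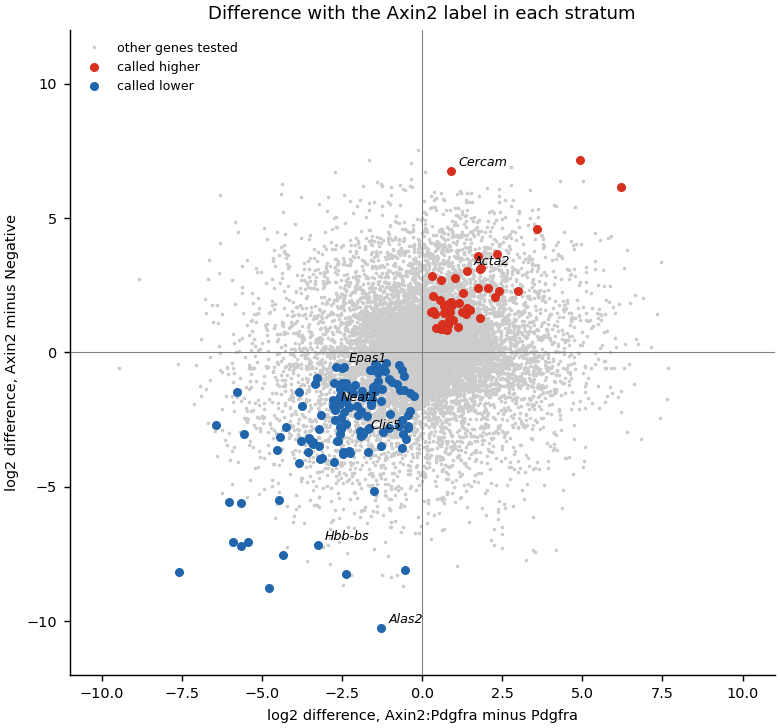
Log2 difference with the Axin2 label in cells with the Pdgfra label (x, Axin2:Pdgfra minus Pdgfra) and without it (y, Axin2 minus Negative); each point is a gene tested, with the 45 called higher and the 126 called lower in colour. Called genes, chosen by the mean of the 2 differences, lie in the 2 quadrants of equal sign; Alas2 lies far down at -1.27 on x and -10.26 on y. Prmt8 and Sox8, each listed at the lowest value in all 4 libraries of one side, are drawn at their fitted difference.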

How the data were processed

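RNA was extracted with Trizol from sorted cells, per the labels. The deposited tables give a single log2 value per gene and library; the authors' processing notes name STAR, limma and the mouse build mm9, without versions. The log2 scale was inferred from the values, which share their upper range across libraries as quantile normalization leaves them; differences of genes near the lowest value depend on that value. For the counter, the annotation and the strand setting, the sources used here give nothing. Symbols were matched to 14720 of 14854 identifiers and 134 had none.

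Genes at 6 or more in at least 2 of the 8 libraries were tested, 13867 in all. limma 3.58.1 in R 4.3.3 was fitted with a mean for each of the 4 lineages (4 residual degrees of freedom) and moderated by eBayes with its trend and robust options. Tests were two-sided, p-values were adjusted over all genes by Benjamini-Hochberg, and the threshold was 0.05. Errors of log2 differences are standard errors. Gene lists are described by counts and medians, with no test. Members and lists were chosen with earlier results of these data known. Genes named were Axin2 and Pdgfra; the 12 largest calls and the 8 with the smallest adjusted p in each direction; of each list up to 4 calls, or the lowest p; and the 3 lowest p for the interaction. Ager, Hopx, Tcf21, Npnt, Limch1, Pdpn, Aqp5, Tagln, Actg2, Cnn1, Pi16, Epcam, Eng, Ptprc, Serping1 and the genes called only within a stratum or in families were named in addition, after their values were seen. One gene that the rule names is not reported here. Alternatives varied the filter, centring, low values, covariates, the replicate block and single libraries.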

Additional observations from a re-analysis of the deposited data

How the results depend on the processing

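The count of 171 calls for the Axin2 label stayed within 1.5 times without a filter, with a filter at 8, with values under 6 raised to 6 and in an additive model, and with all 10 libraries. It was 0 without trend and robust (1791 genes at an unadjusted p under 0.05, beside 2046 with them), 357 with the replicate block, 102 after centring and 75 with the second barcode index as a covariate. Without 1 library it ranged from 5 to 331, with 198 higher and 133 lower at 331; such fits have 1 library fewer in a lineage of 2, whose lone library is assumed to vary like the others. The causes were not tested. The replicate block gave 178 higher and 179 lower, and the interaction 2 calls in place of 0. Replicate numbers did not pair the libraries (correlations of deviations -0.059 to 0.029), so the block is only an alternative. Negative replicate 0 is the only library with its replicate number, so with the block it adds nothing to the contrasts. The Negative lineage then rests on Negative replicate 2, the only library of male origin. The interaction gave 0 to 2 calls without 1 library, and centring moved its median over all genes to -0.54, beside -0.09. The Pdgfra label gave 172 calls without trend and robust and 376 to 754 without 1 library. With values under 6 raised to 6, 12 of the 93 named calls ended. None of the 93 changed direction in any alternative run. Uncalled values that did were those of Axin2, which ranged from -0.26 (without Axin2:Pdgfra replicate 1) to 0.99 over the fits without 1 library, and Xist, which ranged from -0.28 (without Negative replicate 2) to 4.29. Depth is unknown, and 2 libraries a lineage limit the precision.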

Other observations

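Some gene families outside the lists above, grouped after their values were seen, held more than 1 call; over all genes 0.909% were called lower. All 13 protein genes of the mitochondrial genome were negative (median -0.91), and 4 were called lower. mt-Nd5, a subunit of respiratory complex I, had 16.22 and 15.74 in Axin2:Pdgfra and 16.45 and 16.45 in Axin2 cells, against 17.13 and 17.13 in Pdgfra and 16.94 and 17.32 in Negative cells. Every labelled value lay below every unlabelled one (-0.91 ± 0.14, adjusted p = 0.00715). mt-Co1, a subunit of cytochrome oxidase, had 16.8 and 16.53 in Axin2:Pdgfra and 17.13 and 16.85 in Axin2 cells, against 17.32 and 17.47 in Pdgfra and 17.47 and 17.47 in Negative cells (-0.60 ± 0.11, adjusted p = 0.0236). The others were mt-Nd1 (-0.76 ± 0.15, adjusted p = 0.0311) and mt-Nd4 (-0.95 ± 0.21, adjusted p = 0.0451).

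All 3 subunit genes of the epithelial sodium channel, which clears alveolar fluid, were called lower: Scnn1a (-2.45 ± 0.47, adjusted p = 0.0247), Scnn1b (-3.36 ± 0.67, adjusted p = 0.0287) and Scnn1g (-2.10 ± 0.45, adjusted p = 0.0392). Scnn1a had 8.9 and 10.89 in Axin2:Pdgfra and 12.84 and 11.66 in Axin2 cells, against 12.54 and 11.09 in Pdgfra and 15.5 and 14.94 in Negative cells. The Negative libraries were highest, and Axin2 and Pdgfra libraries overlapped. Of 20 semaphorin genes, which encode guidance cues, 4 were lower: Sema3e (-3.41 ± 0.62, adjusted p = 0.0215), Sema6a (-2.61 ± 0.58, adjusted p = 0.0449), Sema6d (-2.11 ± 0.33, adjusted p = 0.00996) and Sema7a (-3.79 ± 0.76, adjusted p = 0.0287), although 9 of the 20 were not negative. Sema7a had 6.01 and 5.55 in Axin2:Pdgfra and 8.26 and 7.89 in Axin2 cells, against 10.52 and 9.92 in Pdgfra and 10.38 and 12.06 in Negative cells, without overlap. Tetraspanins had 4 of 18 members called lower (Tspan2, Tspan7, Tspan13 and Tspan18), led by Tspan18 (-3.54 ± 0.50, adjusted p = 0.00462), and 5 of the 18 were not negative. All 4 lost the call without Pdgfra replicate 1, and Tspan2, Tspan7 and Tspan13 also without Axin2 replicate 1, Axin2 replicate 2, Pdgfra replicate 2 or Negative replicate 2, with adjusted p up to 0.25. Tspan7 was also lost without Axin2:Pdgfra replicate 2, and Tspan2 without Axin2:Pdgfra replicate 1 or Negative replicate 0.

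Of the 11 mitochondrial, sodium channel and semaphorin genes named here, all lost the call without Axin2 replicate 2 or Pdgfra replicate 1, 8 each without Pdgfra replicate 2 or Negative replicate 2, 6 each without Axin2 replicate 1 or Axin2:Pdgfra replicate 2, 4 without Negative replicate 0 and 2 without Axin2:Pdgfra replicate 1, with adjusted p up to 0.285. After centring mt-Nd1 (adjusted p = 0.0645), mt-Nd4 (0.0787), mt-Co1 (0.105), Scnn1g (0.0712) and Sema6a (0.0567) did not pass.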
